A study of Rattus norvegicus with 12 samples.

Results

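The gene set described here holds 32 rat genes of fatty acid oxidation, its ketone-forming end step and its transcriptional regulators, among 15645 named genes with a probe on the array. Its members were chosen by symbol, through the RefSeq accession of each probe, by a rule that uses no measured value, although earlier results of these data were known. Of the 32, 17 encode proteins of mitochondrial oxidation, 8 proteins of the peroxisome, 4 proteins found in both or at other membranes, and 3 are regulators. All of them were represented, by 49 probes in all (1 to 4 each). The representative probe of each, the brightest over all arrays, was well above background on all 12 arrays.

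Each array measured the total RNA of 1 animal's renal cortex, and the animals were Sprague-Dawley (Crl:CD(SD)) male rats that were 5 weeks old when bought. The gavage experiment had 3 rats given water and 3 given cisplatin at 3.75 mg/kg/day, and the intravenous experiment had 3 rats given water and 3 given cisplatin at 0.75 mg/kg/day, each for 4 weeks. Cisplatin, a platinum compound used against tumours, forms DNA crosslinks and enters proximal tubule cells. Route, dose and experiment changed together and cannot be told apart. The intravenous dose is that of the sample labels, since the common protocol text gives a dose of 3.75 mg/kg/day for every group. The cortex was measured as a whole, with no sorting of cells. No genetic change and no treatment was common to the 4 groups, and each cisplatin group had water controls of its own.

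Proximal tubule cells draw most of their energy from the oxidation of fatty acids. These are activated to acyl-CoA, carried into mitochondria as carnitine esters, and shortened by a repeated cycle of dehydrogenation, hydration, dehydrogenation and thiolysis, whose electrons reach the respiratory chain through the electron transfer flavoprotein. Very long and branched chains are first shortened in peroxisomes, where the oxidases yield hydrogen peroxide that catalase removes. PPARα, a nuclear receptor activated by fatty acids, and its coactivator PGC-1α raise transcription of many of these enzymes.

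All values below are log2 processed intensities minus the 75th percentile of the same array, so that a difference of 1 is a doubling, and changes are cisplatin minus water with their standard error (SE, n = 3 arrays per group). A gene was called at an adjusted p under 0.05 in the fit over all 32215 features tested. The 75th percentile itself was 969.7 to 1054.8 on the water arrays and 1387.4 to 1532.2 on the cisplatin arrays, and arrays of the same group correlated at 0.981 to 0.993. Slides did not cut across the groups evenly. All 3 arrays of gavage water shared slide 1 with replicate 1 of gavage cisplatin. Replicates 2 and 3 of gavage cisplatin were on slide 2 with all intravenous controls, and slide 3 carried intravenous cisplatin alone. In the intravenous experiment slide and treatment therefore cannot be told apart. Intravenous cisplatin replicate 1 stood apart from the other arrays of its group at the members, where it was the lowest of the 3 in 28 of 32 genes (87.5%, against 31.4% of all features), and the member counts are also given without it.

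Nearly the whole set was lower after cisplatin in both experiments. After gavage 30 of the 32 members fell, 0 rose and 2 did not pass the test, where 30.2% of all features tested fell and 59.7% changed in either direction. After intravenous dosing 29 fell, 0 rose and 3 did not pass, where 32.7% of all features fell and 58.8% changed in either direction. The same 29 genes fell in both. The median change of the 32 members was -1.74 after gavage and -1.26 after intravenous dosing, beside 0.00 and -0.07 over all features. Without intravenous cisplatin replicate 1 the intravenous count was 28 and the median -1.02. In whole cortex, fewer cells of a type and less RNA per cell cannot be told apart.

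Most members separated array by array. For 30 members all 3 gavage cisplatin arrays lay below all 3 gavage water arrays, as for 34.1% of all features (33.2% lay wholly above), and Crot and Pdk4 were the exceptions. In the intravenous experiment this held for 31 members, with Pdk4 as the exception, and for 36.9% of all features. The 12 members with several probes had 29 probes, and each of these was lower and passed the test in both comparisons. A fit with slide as a block leaves 1 gavage cisplatin array, replicate 1, against its 3 controls, with the spread pooled over the groups, and 28 members fell in it. The size of the falls moved with the scaling. When arrays were centred on 7 spike-in probes instead of the 75th percentile, the median of all features moved to 0.67 after gavage and 0.49 after intravenous dosing, and 27 and 20 members fell. Of all features 9.63% and 9.42% fell under spike-in scaling and 62.2% and 52.9% rose. Because this scaling shifts all features of an array alike, the member median relative to the median of all features is the same under both (-1.74 and -1.19) by construction.

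**Figure D1:**
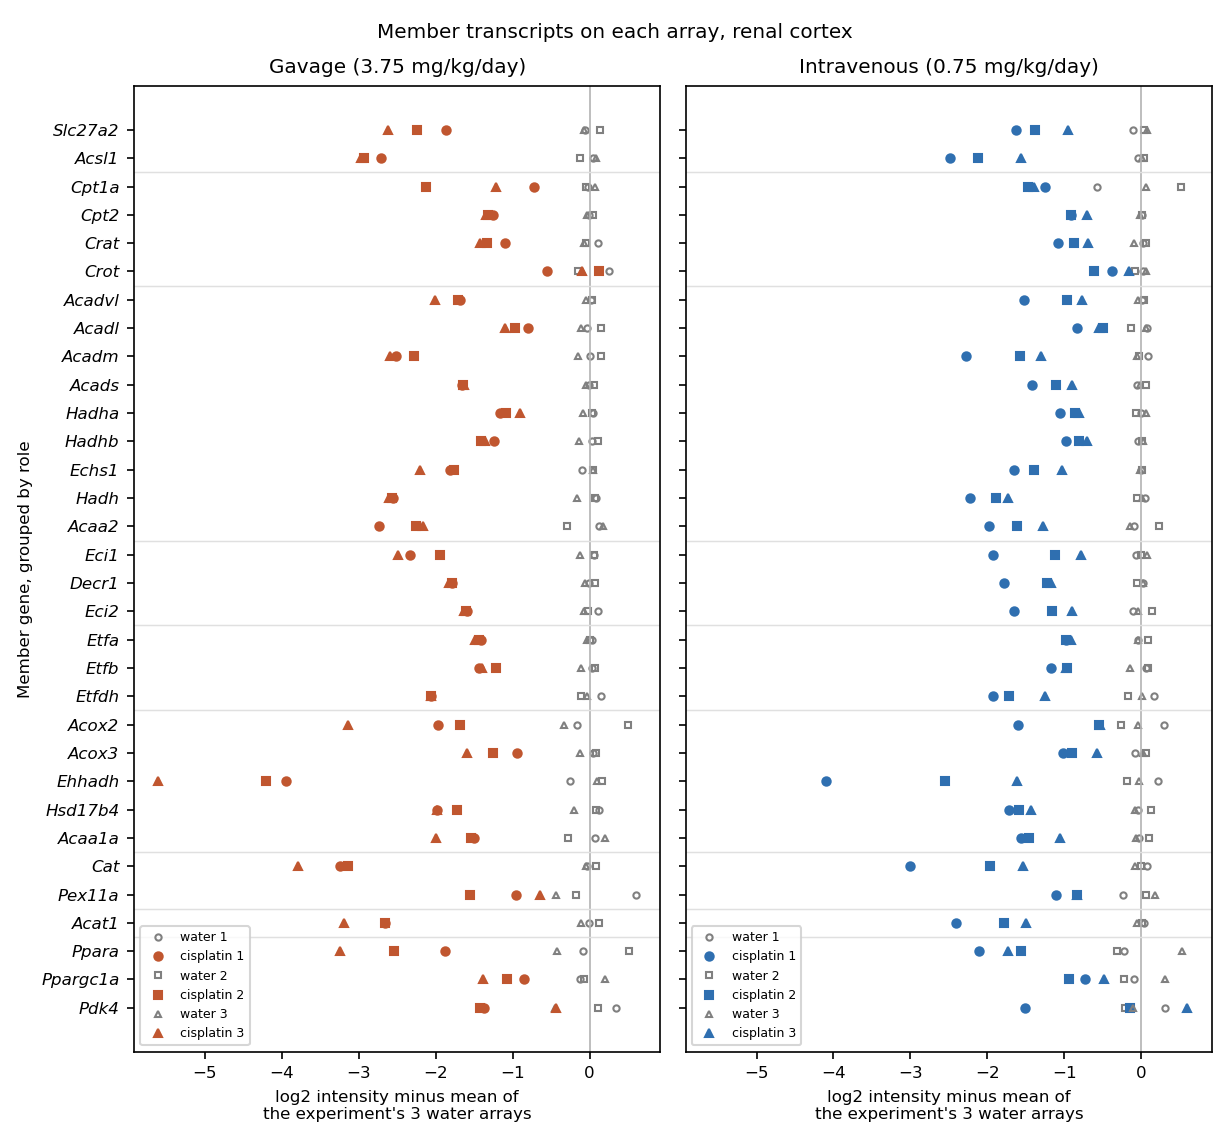
Each row is a member, grouped by role, and each symbol an array: the x axis is the log2 intensity minus the mean of the 3 water arrays of the same experiment, with open grey symbols for water and filled symbols for cisplatin. The filled symbols lie left of the open ones in all rows except Crot and Pdk4 after gavage and Pdk4 after intravenous dosing, and replicate 1 (circles) is the leftmost intravenous cisplatin array in 28 of 32 rows.

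Promoter sequence was looked up because the members moved together and several are textbook targets of PPARα. Windows of 300 bases, from 250 before to 50 after the RefSeq transcription start on GRCr8, were held for 29 members (not for Acadl, Acaa2 and Decr1) among 33469 promoters. Both strands were searched. Members were counted with 1 window per gene, whereas the shares of all windows count every window held. The tandem element bound by PPARα with its partner RXR, searched as AGGTCA, any 1 base and AGGTCA again, was in 0 member windows and in 0.0538% of all windows. The element TNAAGGTCA of the oestrogen-related receptors was in 0 member windows and in 1.2% of all. Both searches allowed no mismatch, and at these shares 0 matches in 29 windows cannot show that the members lack such elements. The 6-base core AGGTCA, which is part of both longer motifs, was in 8 member windows (27.6%) against 16.2% of all. The NRF1 motif, searched as GCGCA, any 1 base and GCGC, was in 3 member windows (10.3%) against 4.25%. The windows below, from RefSeq and written 5′ to 3′ on the strand of the gene with the match in capitals, show the 3 NRF1 matches and the AGGTCA matches of 5 genes that fell in both experiments; TGACCT is the same core on the other strand. A match is a run of letters, and binding was not measured.
Etfb: gtgttgcggcGCGCAGGCGCagagacagat
Etfdh: tgcttctagtGCGCACGCGCacatgcgaga
Ppara: gggctcggtgGCGCATGCGCgtggaccagg
Echs1: caccccgcccAGGTCAcgggtacatc
Cat: tgactctcagAGGTCAgagagcaccg
Slc27a2: cttgaagaaaTGACCTttgagatatg
Eci1: tggctgatctTGACCTcctgaagggc
Acadvl: acgggagaagAGGTCAgtggtcaagg

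The matches begin 58 bases (Etfb, chr1:102988431-102988460, plus strand), 168 bases (Etfdh, chr2:167060907-167060936, minus strand) and 100 bases (Ppara, chr7:118712497-118712526, plus strand) before the start for the NRF1 motif. For the AGGTCA core they begin 93 bases (Echs1, chr1:204333584-204333609, minus strand), 169 bases (Cat, chr3:110329680-110329705, minus strand), 76 bases (Slc27a2, chr3:134258015-134258040, plus strand), 94 bases (Eci1, chr10:13961146-13961171, plus strand) and 17 bases (Acadvl, chr10:55236707-55236732, minus strand) before it. The ranges are those of the printed windows. Acadvl held a further core 169 bases before its start and Hsd17b4 held a core 56 bases before its own, while those of Hadhb and Eci2 lay after the start.

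Uptake and activation come first in the pathway. Acsl1, the long-chain acyl-CoA synthetase that commits fatty acids to metabolism, read 5.60, 5.43 and 5.65 on the gavage water arrays and 2.85, 2.63 and 2.59 on the gavage cisplatin arrays. In the intravenous experiment it read 5.17, 5.25 and 5.23 with water and 2.73, 3.10 and 3.65 with cisplatin. Its cisplatin arrays lay far below its water arrays in both experiments, and the intravenous ones were spread more widely than the gavage ones. Acsl1 fell by 2.87 ± 0.19 after gavage (7.32-fold, limma adjusted p = 1.94e-06) and by 2.06 ± 0.19 after intravenous dosing (4.16-fold, adjusted p = 2.17e-05).

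Slc27a2 encodes FATP2, a very long-chain acyl-CoA synthetase and fatty acid transporter of the proximal tubule. Its arrays read 7.21, 7.40 and 7.20 against 5.40, 5.03 and 4.65 in the gavage experiment, and 6.80, 6.95 and 6.98 against 5.28, 5.53 and 5.96 in the intravenous one, water first. Treated and control arrays did not overlap. The falls were 2.25 ± 0.20 and 1.32 ± 0.20 in size (changes of -2.25 and -1.32, adjusted p = 1.05e-05 and 3.81e-04). The other probes of these genes fell as well, the 4 probes of Acsl1 by 2.75 to 3.36 after gavage and the second probe of Slc27a2 by 2.42.

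The carnitine shuttle moves acyl groups across membranes. Cpt2, the inner-membrane transferase that releases acyl-CoA in the matrix, read 3.43, 3.48 and 3.41 with gavage water and 2.19, 2.12 and 2.10 with gavage cisplatin. With intravenous water it read 3.23, 3.23 and 3.21, and with intravenous cisplatin 2.31, 2.31 and 2.52. The 4 groups of Cpt2 were tight, and both cisplatin groups lay clear of their controls. Cpt2 fell by 1.31 ± 0.08 and by 0.84 ± 0.08 (adjusted p = 1.27e-06 and 2.24e-05).

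Crat, the carnitine acetyltransferase of mitochondria and peroxisomes, read 6.60, 6.45 and 6.42 against 5.39, 5.16 and 5.07 after gavage. It read 6.39, 6.43 and 6.28 against 5.28, 5.50 and 5.68 after intravenous dosing, without overlap in either. It fell by 1.28 ± 0.12 and by 0.88 ± 0.12 (adjusted p = 1.33e-05 and 1.90e-04). Cpt1a, the outer-membrane transferase at which malonyl-CoA controls entry, fell by 1.36 ± 0.34 in both experiments (adjusted p = 0.00545 and 0.00581), with a wider spread. Its gavage cisplatin arrays read 2.62, 1.22 and 2.13 and its intravenous water arrays 2.52, 3.61 and 3.16. The only gavage cisplatin array on the slide of its controls, replicate 1, was the highest of the 3. With the slide as a block, which leaves that slide alone, the change of Cpt1a was -0.73 and did not pass (adjusted p = 0.165).

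Crot, the peroxisomal transferase that exports shortened acyl groups as carnitine esters, is the member with the smallest gavage change. Its gavage water arrays read 3.19, 2.78 and 2.83 and its gavage cisplatin arrays 2.38, 3.05 and 2.84. Its intravenous arrays read 3.02, 2.91 and 3.05 with water and 2.61, 2.38 and 2.84 with cisplatin. After gavage the groups overlapped, with replicate 1 low and replicates 2 and 3 above 2 of the water arrays, whereas the intravenous cisplatin arrays all lay below their controls. Neither change passed the test (-0.18 ± 0.18, adjusted p = 0.429, and -0.38 ± 0.18, adjusted p = 0.0956). Without gavage cisplatin replicate 1 the gavage value was 0.01.

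All 9 members of the mitochondrial beta-oxidation spiral fell in both experiments, by 0.95 (Acadl) to 2.58 (Hadh) after gavage and by 0.63 (Acadl) to 1.95 (Hadh) after intravenous dosing. Hadh, the medium- and short-chain 3-hydroxyacyl-CoA dehydrogenase, read 7.38, 7.36 and 7.13 with gavage water and 4.73, 4.72 and 4.68 with gavage cisplatin. It read 7.18, 7.08 and 7.14 with intravenous water and 4.91, 5.25 and 5.40 with intravenous cisplatin. The 3 gavage cisplatin arrays were closer together than their controls. The change of Hadh was -2.58 ± 0.12 after gavage (5.97-fold, adjusted p = 3.65e-07) and -1.95 ± 0.12 after intravenous dosing (3.85-fold, adjusted p = 2.69e-06).

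Acads, the short-chain acyl-CoA dehydrogenase, read 5.68, 5.74 and 5.64 against 4.03, 4.04 and 4.05 after gavage. In the intravenous experiment the arrays read 5.45, 5.56 and 5.49 against 4.08, 4.39 and 4.60. Replicate 1 of the intravenous group was thus close to the gavage cisplatin arrays and the other replicates were higher. Acads fell by 1.64 ± 0.12 and by 1.15 ± 0.12 (adjusted p = 2.75e-06 and 3.53e-05).

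Among the other chain-length dehydrogenases, Acadm (medium chain) changed by -2.46 ± 0.21 and -1.72 ± 0.21, Acadvl (very long chain) by -1.80 ± 0.17 and -1.08 ± 0.17, and Acadl (long chain) by -0.95 ± 0.12 and -0.63 ± 0.12, gavage first. The subunits of the trifunctional protein, which carries out the later steps on long chains, had smaller changes after gavage than the other cycle members except Acadl. Hadha changed by -1.05 ± 0.10 and -0.91 ± 0.10, and Hadhb by -1.34 ± 0.10 and -0.83 ± 0.10. Echs1, the short-chain enoyl-CoA hydratase, changed by -1.93 ± 0.16 and -1.36 ± 0.16, and the thiolase Acaa2 by -2.39 ± 0.21 and -1.62 ± 0.21. Each of these passed the test in both experiments, with adjusted p between 3.15e-06 (Hadhb, gavage) and 0.00151 (Acadl, intravenous). The loss of calls under spike-in scaling touched this role: Acadl after gavage (-0.29, adjusted p = 0.122), and Acadl, Hadha and Hadhb after intravenous dosing, did not pass. Elsewhere it touched Pex11a and Ppargc1a in both experiments and Cpt2, Crat, Eci1 and Acox3 after intravenous dosing.

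The auxiliary enzymes feed unsaturated chains into the cycle. Decr1, the mitochondrial 2,4-dienoyl-CoA reductase, read 5.70, 5.78 and 5.66 against 3.93, 3.93 and 3.88 after gavage, and 5.62, 5.55 and 5.63 against 3.82, 4.38 and 4.43 after intravenous dosing. Intravenous replicate 1 lay below the gavage cisplatin arrays, and the other replicates above them. It fell by 1.80 ± 0.14 and by 1.39 ± 0.14 (adjusted p = 4.61e-06 and 3.45e-05).

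Eci2, an enoyl-CoA isomerase of peroxisomes and mitochondria, read 5.12, 4.99 and 4.94 against 3.42, 3.41 and 3.38 after gavage and 4.88, 5.12 and 4.94 against 3.33, 3.82 and 4.08 after intravenous dosing. The same order was seen, replicate 1 being the lowest of the intravenous arrays. Eci2 fell by 1.61 ± 0.16 and 1.24 ± 0.16 (adjusted p = 2.05e-05 and 1.48e-04), and the mitochondrial isomerase Eci1 by 2.26 ± 0.25 and 1.28 ± 0.25.

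Electrons leave the cycle through the electron transfer flavoprotein and its dehydrogenase. Etfa, the alpha subunit, read 3.28, 3.26 and 3.22 with gavage water and 1.84, 1.82 and 1.76 with gavage cisplatin. It read 2.97, 3.10 and 2.97 with intravenous water and 2.04, 2.04 and 2.10 with intravenous cisplatin. Each group spanned little, and both the controls and the treated arrays of the intravenous experiment lay between the gavage groups. Etfa fell by 1.44 ± 0.07 (2.72-fold, adjusted p = 3.75e-07) and by 0.95 ± 0.07 (1.94-fold, adjusted p = 5.98e-06).

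Etfb, the beta subunit, read 6.42, 6.46 and 6.27 against 4.95, 5.17 and 4.99 after gavage and 6.21, 6.24 and 6.01 against 4.98, 5.19 and 5.18 after intravenous dosing. Its treated arrays reached nearly the same level by either route. The changes were -1.35 ± 0.10 and -1.04 ± 0.10 (adjusted p = 4.26e-06 and 3.21e-05). Etfdh, the membrane-bound oxidoreductase that passes the electrons to ubiquinone, changed by -2.07 ± 0.16 and -1.64 ± 0.16. Etfb, Etfdh and Ppara are the 3 members with the NRF1 motif printed above. Nrf1 itself, which is no member, changed by 0.37 ± 0.08 and 0.58 ± 0.08 and passed in both, where 29.5% and 26.1% of all features rose. A link between Nrf1 and these 3 members was not tested.

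Peroxisomal oxidation held the largest fall of the set. Ehhadh, the L-bifunctional protein of the peroxisome and a classic PPARα target in rodent liver, read 3.04, 3.46 and 3.40 with gavage water and -0.65, -0.91 and -2.31 with gavage cisplatin. It read 3.25, 2.84 and 3.00 with intravenous water and -1.07, 0.48 and 1.41 with intravenous cisplatin. The controls were close to each other, while the treated arrays were widely spread, replicate 3 being lowest after gavage and replicate 1 after intravenous dosing. Ehhadh fell by 4.59 ± 0.57 (24.1-fold, adjusted p = 8.10e-05) and by 2.76 ± 0.57 (6.76-fold, adjusted p = 0.0023). The intravenous value was -2.08 without cisplatin replicate 1, the only omission of an array that moved the fold of a called member by over 1.5 times within either experiment.

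Hsd17b4, the D-bifunctional protein that acts on branched and very long chains, was far less spread. Its arrays read 6.48, 6.45 and 6.16 against 4.38, 4.64 and 4.38 after gavage and 6.30, 6.47 and 6.26 against 4.62, 4.75 and 4.91 after intravenous dosing. Treated and control arrays did not overlap, and the ranges of the gavage and intravenous treated arrays overlapped slightly. It fell by 1.90 ± 0.12 and by 1.59 ± 0.12 (adjusted p = 1.70e-06 and 7.88e-06).

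Acaa1a, the peroxisomal thiolase, read 6.68, 6.33 and 6.81 against 5.10, 5.07 and 4.61 after gavage and 6.21, 6.33 and 6.16 against 4.67, 4.78 and 5.18 after intravenous dosing. Again no treated array reached a control. The change was -1.68 ± 0.18 and -1.36 ± 0.18 (adjusted p = 3.01e-05 and 1.60e-04). The other 2 probes of Acaa1a gave -2.76 and -2.61 after gavage and -1.86 and -1.78 after intravenous dosing, larger falls than the representative probe. Acaa1b, a near-identical copy and not a member, changed by -2.67 ± 0.32 and -2.10 ± 0.32, and the values of the pair are uncertain singly because their probes can share transcripts.

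The branched-chain oxidases were dim and more variable. Acox2 changed by -2.26 ± 0.41 after gavage (adjusted p = 8.74e-04) and by -0.90 ± 0.41 after intravenous dosing, which did not pass (adjusted p = 0.084) although its 3 treated arrays lay below the controls. Acox3 changed by -1.26 ± 0.16 and -0.83 ± 0.16 and passed in both.

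Cat, the catalase that breaks down the hydrogen peroxide of peroxisomal oxidases, had the second largest fall. It read 3.26, 3.38 and 3.25 with gavage water and 0.05, 0.15 and -0.49 with gavage cisplatin. It read 3.17, 3.09 and 3.01 with intravenous water and 0.08, 1.12 and 1.55 with intravenous cisplatin. Intravenous replicate 1 lay among the gavage cisplatin arrays, and the other intravenous arrays were higher. Cat fell by 3.40 ± 0.31 (10.5-fold, adjusted p = 1.18e-05) and by 2.18 ± 0.31 (4.52-fold, adjusted p = 2.50e-04).

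Pex11a, a PPARα-inducible membrane protein that promotes peroxisome division, read 5.80, 5.01 and 4.76 against 4.24, 3.64 and 4.54 after gavage. The intravenous arrays read 4.85, 5.15 and 5.27 against 3.98, 4.25 and 4.26. Groups did not overlap, but the gavage groups came within a small distance of each other. It fell by 1.05 ± 0.28 and by 0.93 ± 0.28 (adjusted p = 0.00864 and 0.0169). The gavage call was lost in the slide-block fit, which sets replicate 1 alone against its controls (-0.95). The intravenous call was lost without intravenous cisplatin replicate 1 (-0.84, adjusted p = 0.0544) or without intravenous water replicate 3 (-0.84, adjusted p = 0.055). It was also lost with quantile normalization (-0.71, adjusted p = 0.0539), and both calls were lost with spike-in scaling.

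Acat1, the mitochondrial acetoacetyl-CoA thiolase that acts in both ketone synthesis and ketone use, was the mitochondrial member that fell most after gavage. Its arrays read 4.40, 4.53 and 4.29 against 1.75, 1.75 and 1.22 after gavage and 4.26, 4.24 and 4.17 against 1.82, 2.44 and 2.73 after intravenous dosing. The controls lay within a narrow band, and intravenous replicate 1 was close to the highest gavage cisplatin arrays. The change was -2.84 ± 0.22 (7.14-fold, adjusted p = 4.07e-06) and -1.90 ± 0.22 (3.72-fold, adjusted p = 6.68e-05).

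Among the regulators, Ppara, which encodes PPARα, read -0.34, 0.26 and -0.67 with gavage water and -2.13, -2.79 and -3.50 with gavage cisplatin. It read -0.74, -0.83 and 0.02 with intravenous water and -2.62, -2.08 and -2.25 with intravenous cisplatin. Both treated groups lay below all controls, and the spread within groups was wider than for most enzymes. Ppara fell by 2.55 ± 0.37 (5.87-fold, adjusted p = 1.94e-04) and by 1.80 ± 0.37 (3.49-fold, adjusted p = 0.00197), and its second probe gave -2.73 and -1.90.

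Ppargc1a, which encodes the coactivator PGC-1α, read -0.67, -0.61 and -0.34 against -1.39, -1.61 and -1.92 after gavage and -0.84, -0.97 and -0.44 against -1.48, -1.69 and -1.23 after intravenous dosing. The groups were apart in both experiments by a small margin. It fell by 1.10 ± 0.19 (adjusted p = 5.58e-04) and by 0.72 ± 0.19 (adjusted p = 0.00751), and neither call held under spike-in scaling (-0.43, adjusted p = 0.0926, and -0.16, adjusted p = 0.544).

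Pdk4, the kinase that shuts off pyruvate dehydrogenase when fatty acids are burnt and itself a PPARα target, passed the test in neither experiment. It read -1.68, -1.91 and -2.47 with gavage water and -3.39, -3.45 and -2.45 with gavage cisplatin. It read -1.82, -2.34 and -2.23 with intravenous water and -3.64, -2.28 and -1.54 with intravenous cisplatin. The third gavage cisplatin array was at the level of the lowest control, and the intravenous treated arrays lay below, among and above their controls. Its changes of -1.08 ± 0.48 and -0.35 ± 0.48 did not pass (adjusted p = 0.0747 and 0.546). Without intravenous cisplatin replicate 1 the intravenous value was 0.23.

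Set side by side, the mitochondrial and peroxisomal members had nearly the same median but not the same range. The 17 mitochondrial members all fell in both experiments, with medians of -1.80 and -1.28. Of the 8 peroxisomal members 7 fell after gavage and 6 after intravenous dosing, with medians of -1.79 and -1.14. With the mean of all probes the peroxisomal median after gavage was -2.08. The 5 peroxisomal oxidation members, without Cat, Pex11a and Crot, had medians of -1.90 and -1.36. The mitochondrial changes ran from -2.84 to -0.95 and from -1.95 to -0.63, whereas the peroxisomal ones ran from -4.59 to -0.18 and from -2.76 to -0.38. Falls of over 2 units were seen in 6 of 17 mitochondrial and 3 of 8 peroxisomal members after gavage, and in 0 of 17 and 2 of 8 after intravenous dosing. Ehhadh and Cat at the lower end and Crot at the upper end set the wider peroxisomal range.

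Array by array the same nearness was seen. Relative to the mean of their own water arrays, the mitochondrial medians on the gavage cisplatin arrays were -1.68, -1.76 and -1.84 and the peroxisomal medians -1.74, -1.62 and -1.99. On the intravenous cisplatin arrays they were -1.52, -1.13 and -0.97 against -1.58, -1.17 and -0.94. Each pair of medians lay closer together than the intravenous arrays lay to each other.

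**Figure D2:**
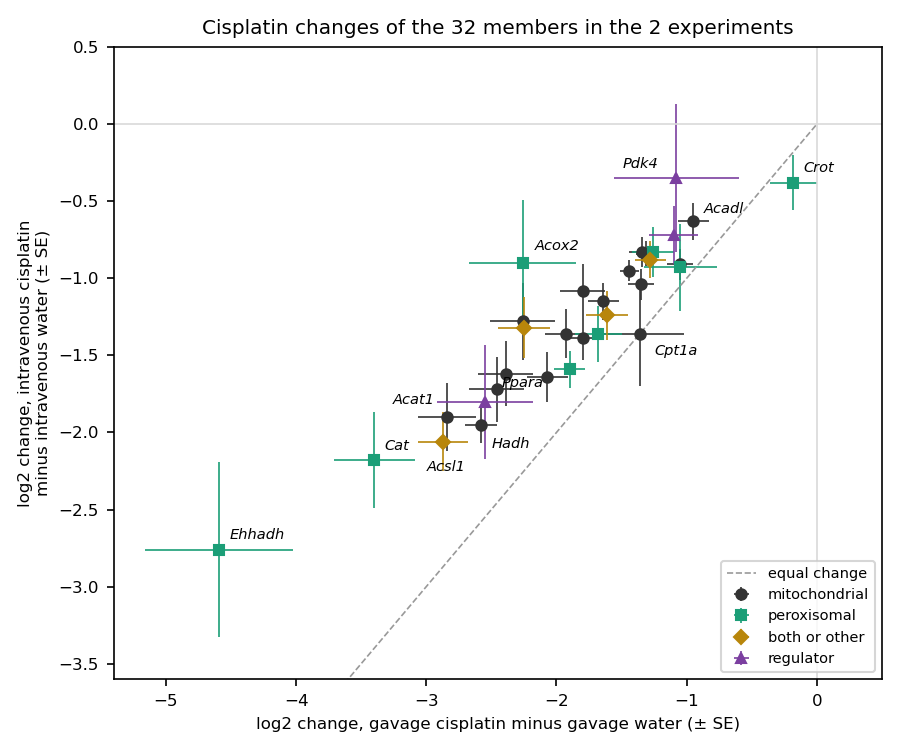
Each symbol is a member, with its log2 change after gavage on the x axis and after intravenous dosing on the y axis (± SE) and its shape giving the compartment; the dashed line marks equal changes. Of the 32 members, 30 lie above the line, Cpt1a and Crot do not, and the peroxisomal squares run from Ehhadh (-4.59, -2.76) to Crot (-0.18, -0.38).

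The falls were smaller after intravenous dosing, but the test of the difference passed for a single member. In 30 of 32 members the change was nearer to 0 after intravenous dosing, with a median difference (intravenous minus gavage) of 0.49 beside -0.03 over all features. The features as a whole include those that rose, and their share with a change nearer to 0 was not counted. Between the water groups, again intravenous minus gavage, the member median was -0.18 beside -0.02 over all features. The part of this water shift in the smaller falls was not tested. The median difference was also positive for the proximal tubule markers (1.42) and the further pathway genes (0.33) described below. Cpt1a differed by 0.00 ± 0.47 and Crot by -0.21 ± 0.26. Etfa passed, with a difference of 0.49 ± 0.10 (adjusted p = 0.0491), where 0.161% of all features passed in that direction and 1.21% in either. At an unadjusted p under 0.05 in limma there were 17 members, and the share of all features at that threshold was not counted. The 2 largest differences, of Ehhadh (1.83 ± 0.81, adjusted p = 0.251) and Acox2 (1.37 ± 0.58, adjusted p = 0.233), did not pass.

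This count moved with the arrays included. Without intravenous cisplatin replicate 1, 14 members passed the difference, all with the smaller fall after intravenous dosing, where 2.78% of all features passed in that direction. Among them were Acadvl (0.93 ± 0.15), Hadh (0.77 ± 0.13), Eci1 (1.31 ± 0.22), Cat (1.64 ± 0.26) and Acat1 (1.19 ± 0.23), with adjusted p of 0.0213 (Cat) to 0.0274 (Acat1). Without gavage cisplatin replicate 1, 3 members passed (Slc27a2, Cpt2 and Etfa), and without any 1 of the other 10 arrays the count was 0. The larger count rests on the 2 remaining intravenous cisplatin arrays. Between the water groups of the experiments 0 members passed, as did 0% of all features, and 2 members (Cpt2, -0.22 ± 0.08, and Etfa, -0.24 ± 0.07) had an unadjusted p under 0.05 in limma. That fit pools the spread with the cisplatin groups. With the 6 water arrays fitted alone, 0 members passed and 10 had an unadjusted p under 0.05 in limma. The directions of these 10 and the share of all features at that unadjusted threshold were not counted. At an adjusted p under 0.05 in that fit, 3.28% of all features were higher with intravenous than with gavage water and 0.62% were lower.

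The position of intravenous replicate 1 was shared by other features that fell. It was the lowest of its group in 54.9% of the 9685 other features that fell after gavage. At the members its median change was -1.58, and that of replicates 2 and 3 was -1.14 and -0.93. Replicate 3 was the highest of the 3 in 28 of 32 members. Within the gavage cisplatin group, replicate 3 was the lowest in 21 of 32 members (65.6%, against 32.7% of all features), with a median of -1.91 beside -1.67 and -1.70.

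Markers of the proximal tubule moved along with the members. All 20 markers were well above background on every array. After gavage 20 fell (median -3.29) and after intravenous dosing 18 (median -2.20), where 30.2% and 32.7% of all features fell. Without intravenous cisplatin replicate 1 the intravenous count was 14 and the median -1.49, and under spike-in scaling 19 and 12 markers fell. Their summed level, in multiples of the 75th percentile of an array, was 2690 to 3040 with gavage water and 182 to 412 with gavage cisplatin, and 2530 to 2850 with intravenous water and 325 to 1060 with intravenous cisplatin. Their median change per cisplatin array was -3.22, -2.78 and -4.24 after gavage and -3.21, -1.47 and -1.26 after intravenous dosing, so that the arrays with the lowest members, gavage replicate 3 and intravenous replicate 1, also had the lowest markers. The part of the tubule markers in the member values was not tested.

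Markers of other cell types moved to differing extents, and their part was not tested either. Beside the counts below, 30.2% and 32.7% of all features fell and 29.5% and 26.1% rose, gavage first. Under spike-in scaling 9.63% and 9.42% fell and 62.2% and 52.9% rose. After intravenous dosing the falls of endothelium markers, the rises of lymphocyte markers and both inner medulla counts lay near the shares without spike-in scaling. Of distal nephron markers (thick ascending limb, distal convoluted tubule) all 8 that were tested fell in both experiments. Macrophage markers rose in 9 of 10 and 5 of 10 genes, and their summed level was 19 to 21.8 with gavage water and 36 to 70.6 with gavage cisplatin, while the intravenous sums were 19.8 to 31.6 with water and 37.1 to 51.8 with cisplatin. Fibroblast markers rose in 8 of 8 and 7 of 8 genes, with sums of 30.2 to 40.7 against 112 to 157 and 27.9 to 38.5 against 78.2 to 136. The 6 tubule injury markers all rose, with sums of 18.5 to 23.2 on the water arrays and 483 to 569 on the cisplatin arrays. All 4 erythrocyte markers fell in both experiments, with medians of -6.89 and -3.96 and sums of 448 to 671 on the water arrays and 3.26 to 68.2 on the cisplatin arrays. Collecting duct markers fell in 6 of 8 genes in each experiment and podocyte markers in 5 and 4 of 6, but under spike-in scaling in 3 and 1 and in 0 and 0. Inner medulla markers rose in 3 of 4 genes after gavage, and after intravenous dosing 1 rose and 1 fell. Endothelium markers fell in 3 and 2 of 6 genes, but under spike-in scaling 1 fell and 3 rose in each experiment. Of 6 lymphocyte markers 0 passed after gavage and 2 rose after intravenous dosing. Of 4 adipocyte markers 2 rose and 1 fell after gavage, and 3 rose and 1 fell after intravenous dosing.

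**Figure D3:**
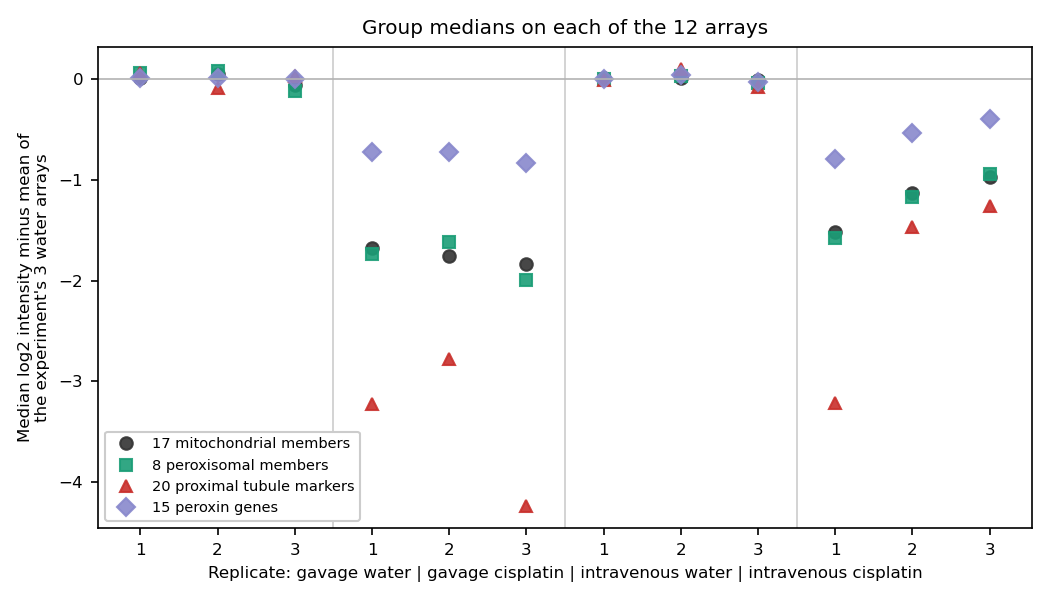
The x axis lists the 12 arrays by group and replicate, and the y axis gives the median log2 intensity of each gene group minus the mean of the 3 water arrays of that experiment. Mitochondrial circles and peroxisomal squares lie together on every array, tubule marker triangles lie lower on every cisplatin array (-4.24 to -1.26), and the peroxin diamonds lie nearest to 0 (-0.83 to -0.40 on the cisplatin arrays).

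Further genes of the pathway were taken from lists of 145 symbols, of which 133 had a probe and 129 were tested. After gavage 91 of them fell and 17 rose, and after intravenous dosing 86 fell and 13 rose (76 and 10 without intravenous cisplatin replicate 1). Of all features 30.2% and 32.7% fell and 29.5% and 26.1% rose, shares that also belong beside the counts of each list below. Under spike-in scaling 61 fell and 34 rose after gavage, and 46 fell and 28 rose after intravenous dosing. Of all features 9.63% and 9.42% fell under it and 62.2% and 52.9% rose, shares that belong beside each spike-in count below. In the difference between experiments 0 passed in limma and 43 had an unadjusted p under 0.05, a threshold at which all features were not counted. Without intravenous cisplatin replicate 1, 24 passed (23 with a positive difference), without gavage cisplatin replicate 1, 8 passed, and without any 1 of the other 10 arrays 0 passed.

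Ketone metabolism fell almost as a whole: 6 of 7 genes fell after gavage and 7 of 7 after intravenous dosing, with medians of -2.12 and -1.38. Slc16a7, a monocarboxylate and ketone transporter, changed by -2.47 ± 0.14 and -2.09 ± 0.14, and Bdh2, a cytosolic hydroxybutyrate dehydrogenase, by -1.54 ± 0.14 and -1.23 ± 0.14. Under spike-in scaling 6 and 5 genes of the list fell.

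Of 19 further genes of mitochondrial oxidation 16 fell and 1 rose after gavage, and 15 fell and 1 rose after intravenous dosing. Under spike-in scaling 11 and 9 of them fell and 2 and 1 rose. Ivd, of leucine breakdown, changed by -1.79 ± 0.12 and -1.34 ± 0.12, and Pcca, a subunit of propionyl-CoA carboxylase, by -1.66 ± 0.11 and -1.48 ± 0.11. The gene that rose was Cpt1c, the carnitine palmitoyltransferase paralog best known from neurons, by 3.22 ± 0.11 (9.31-fold, adjusted p = 5.35e-08) and 3.11 ± 0.11 (8.66-fold, adjusted p = 6.90e-08), while its paralog Cpt1a fell. The rise of Cpt1c was 3.89 and 3.67 under spike-in scaling.

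Of 24 further genes of peroxisomal oxidation 20 fell and 0 rose in each experiment, and under spike-in scaling 16 and 12 fell and 2 rose in each. Scp2, a sterol carrier with a thiolase domain, changed by -1.23 ± 0.08 and -0.90 ± 0.08. The acyl-CoA transporter Abcd3 changed by -1.74 ± 0.11 and -1.33 ± 0.11, and Hacl1, of the alpha-oxidation of branched chains, by -3.31 ± 0.25 and -2.77 ± 0.25.

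The peroxins, which build the organelle and import its proteins, moved less. Of 15 genes 10 fell and 1 rose in each experiment, with medians of -0.76 and -0.63 (7 and 0 after intravenous dosing without cisplatin replicate 1). Under spike-in scaling 4 and 3 fell and 5 and 4 rose, where 9.63% and 9.42% of all features fell and 62.2% and 52.9% rose. Pex13 changed by -1.43 ± 0.09 and -1.07 ± 0.09, Pex5 by -1.47 ± 0.11 and -1.15 ± 0.11, Pex7 by -1.18 ± 0.09 and -0.76 ± 0.09, and Pex14 by 0.40 ± 0.12 and 0.30 ± 0.12. Pex13 and Pex14 dock the import receptors Pex5 and Pex7 at the membrane.

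Of 18 receptors and coregulators 11 fell and 3 rose in each experiment, against 7 and 5 falls and 7 and 6 rises under spike-in scaling. Hnf4a, a nuclear receptor of proximal tubule identity, changed by -3.20 ± 0.30 and -1.83 ± 0.30, the mitochondrial deacetylase Sirt3 by -1.64 ± 0.14 and -1.05 ± 0.14, and Klf15, a transcription factor of fasting metabolism, by -1.40 ± 0.13 and -1.19 ± 0.13. Pprc1, a coactivator of the PGC-1 family, rose by 0.88 ± 0.11 and 1.15 ± 0.11, the opposite direction to Ppargc1a.

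Of 17 other PPARα targets 11 fell and 4 rose after gavage, and 8 fell and 3 rose after intravenous dosing, against 7 and 3 falls and 6 and 5 rises under spike-in scaling. The fatty acid binding protein Fabp3 changed by -2.19 ± 0.19 and -1.53 ± 0.19. Ucp2, a mitochondrial carrier, rose by 2.15 ± 0.09 and 1.89 ± 0.09, and the lipid droplet protein Cidea by 3.43 ± 0.19 and 2.66 ± 0.19. Paralogs of the Cyp4a and Acot families in these lists are uncertain singly.

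Among 18 genes of fatty acid uptake and storage 10 fell and 6 rose after gavage, and 6 fell and 4 rose after intravenous dosing, where 32.7% and 26.1% of all features did. Under spike-in scaling 3 fell in each experiment and 9 and 8 rose. Mgll, a monoglyceride lipase, changed by -2.56 ± 0.20 and -1.80 ± 0.20 and G0s2, an inhibitor of triglyceride lipolysis, by -2.96 ± 0.30 and -1.63 ± 0.30. Acsl5, an acyl-CoA synthetase, rose by 1.98 ± 0.10 and 1.69 ± 0.10 while the member Acsl1 fell, and Fabp4, a binding protein of fat cells and macrophages, rose by 2.60 ± 0.44 and 2.84 ± 0.44.

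Of 11 genes of the pyruvate dehydrogenase switch 7 fell and 2 rose after gavage and 9 fell and 1 rose after intravenous dosing. Under spike-in scaling 7 and 6 fell and 3 and 2 rose. Pdk2, the most widely expressed of the kinases, changed by -1.82 ± 0.11 and -1.48 ± 0.11, the pyruvate carrier subunit Mpc1 by -1.79 ± 0.11 and -1.42 ± 0.11, and Pdhb, a subunit of the complex, by -1.46 ± 0.10 and -1.15 ± 0.10. The phosphatase Pdp1, which switches the complex on, rose by 1.82 ± 0.20 and 1.27 ± 0.20. Pdk1 rose by 0.62 ± 0.13 after gavage and changed by -0.14 ± 0.13 after intravenous dosing, a difference that did not pass (adjusted p = 0.0693).

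**Figure D4:**
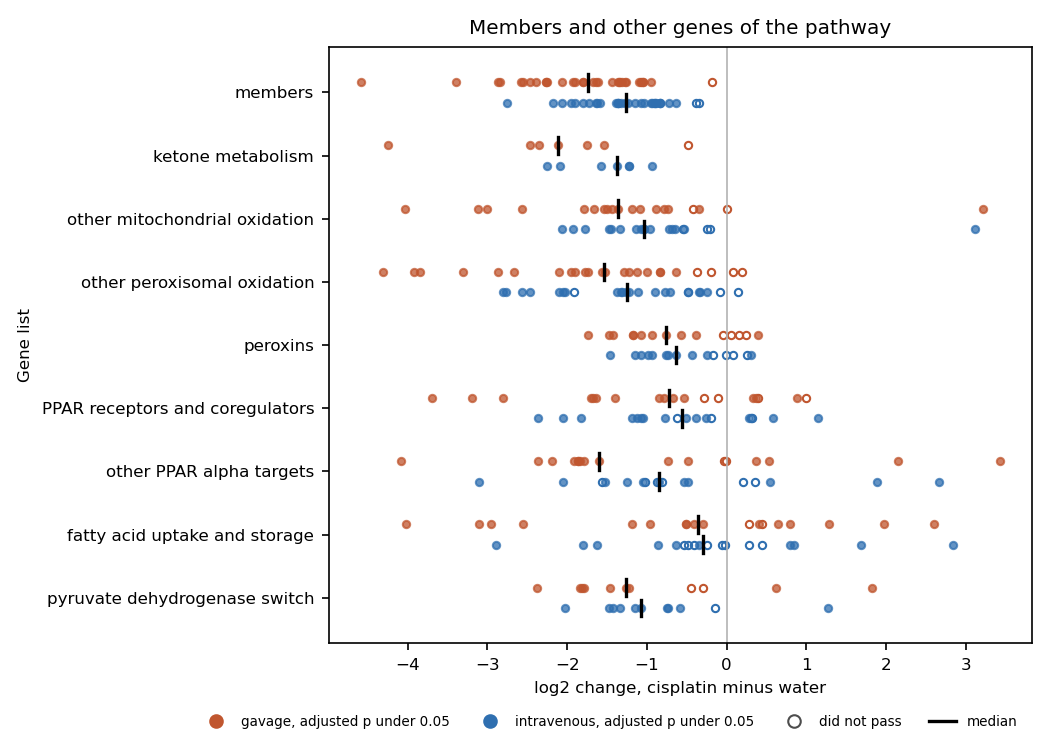
Each point is a gene, with its log2 change (cisplatin minus water) on the x axis and its list on the y axis; filled points passed the test, open points did not, and black bars are medians. The members and the lists of ketone metabolism and of mitochondrial and peroxisomal oxidation lie almost wholly left of 0 (Cpt1c at 3.22 and 3.11 is apart), whereas fatty acid uptake and storage spreads over both sides.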

How the data were processed

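Total RNA of the renal cortex was labelled with Cy3 and hybridised to 1-colour Agilent arrays, 12 in all. The authors extracted intensities with Feature Extraction, an Agilent program, in version 10.7 by the submitters' processing notes and 10.7.1.1 by the headers. Per the file headers, background had been subtracted from the deposited processed intensity array by array, with no normalization across arrays, and the deposited median intensities of spot and local background were used for an alternative. Marks for controls and for spots well above background, saturated or uneven were taken as deposited. The authors' deposited value table matched the scanner values as a linear ratio of the processed intensity to the 75th percentile of its array (medians of 0.109 to 0.121 per array), by a scaling not given in the sources used here.

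Probe accessions were matched to symbols in a RefSeq table of GRCr8: 28206 of 61537 probes had 1 symbol and 33331 none. The 1439 control spots and 82 uneven spots were left out. Log2 processed intensity minus the 75th percentile of each array was used, with no pseudocount. The brightest probe over 12 arrays stood for a gene, and features entered the test when some group had this probe well above background in each of its 3 arrays (32215 of 45433 features). Between 66.1% and 73.9% of probes were well above background on an array with 0 saturated. Precision is limited by the number of arrays. The 3 animals of a group are biological replicates per the labels, so the spread is that between animals.

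The 4 group means were fitted in limma 3.58.1 under R 4.3.3, with 8 residual and 2.08 prior degrees of freedom, as two-sided tests whose p-values were adjusted by Benjamini-Hochberg across all features tested. The contrasts were cisplatin minus water in each experiment, their difference, and intravenous minus gavage water. The scripts were tested on simulated data. The members, gene lists, designs and settings were chosen with earlier results of these data known. Every array is printed for the regulators and for roles of 2 or fewer members, for the 2 members of each other role with the smallest rank sum of p, for extremes and for members passing the difference. From each further list up to 3 genes with the smallest gavage p and up to 2 called genes of opposite sign to the list median were taken, and some are not reported here. Alternatives covered scaling, background correction, the dim filter, the choice of probe, array weights, the arrays fitted, the slide, the replicate number as a block and leaving out each array.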

Additional observations from a re-analysis of the deposited data

Results flagged for a closer look

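Etfa, the alpha subunit of the electron transfer flavoprotein, was the only member whose cisplatin effect differed between the experiments by the test of the difference itself. The difference, intravenous minus gavage, was 0.49 ± 0.10 (SE, limma adjusted p = 0.0491), so that the fall was larger after gavage in a comparison in which route, dose and experiment cannot be told apart. All 3 gavage cisplatin arrays (1.84, 1.82 and 1.76) lay below all 3 intravenous ones (2.04, 2.04 and 2.10), while the gavage water arrays (3.28, 3.26 and 3.22) lay above the intravenous water arrays (2.97, 3.10 and 2.97). The water difference of -0.24 ± 0.07 did not pass (adjusted p = 0.179), and the part that the water arrays have in the result was not tested. The value lies close to the threshold, and over the alternatives the adjusted p ran from 0.0199 (without gavage cisplatin replicate 1) to 0.273 (spike-in scaling, where the difference was 0.38). The call was lost with quantile normalization, normexp correction, no filter on dim probes, the mean of all probes and the replicate block too, and without any 1 of 10 of the 12 arrays. With normexp correction 1 other member passed the difference instead.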

How the results depend on the processing

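Direction held for nearly every member: 798 of 800 gavage values and 765 of 768 intravenous values, over 25 and 24 settings, were below 0. The exceptions were Crot after gavage (0.49 with spike-in scaling, 0.01 without gavage cisplatin replicate 1), Crot after intravenous dosing (0.18 with spike-in scaling) and Pdk4 after intravenous dosing (0.21 with spike-in scaling, 0.23 without intravenous cisplatin replicate 1), none of which passed the test, and the cause was not tested. Leaving out 1 array gave Crot values of -0.32 to 0.01 after gavage and Pdk4 values of -0.83 to 0.23 after intravenous dosing. With spike-in scaling the medians were -1.07 for all members, -1.13 for mitochondrial and -1.12 for peroxisomal members after gavage and -0.70, -0.72 and -0.58 after intravenous dosing. With quantile normalization the gavage medians were -1.47, -1.54 and -1.52, with normexp correction (on the median signal, offset 50) -1.66 for mitochondrial and -1.58 for peroxisomal members, and with the mean of all probes -2.08 for peroxisomal members. Of all calls after gavage 50.6% were falls, against 13.4% with spike-in scaling and 60.7% with normexp, and after intravenous dosing 55.6% against 15.1% with spike-in scaling. The calls lost with spike-in scaling were Acadl, Pex11a and Ppargc1a after gavage, and Cpt2, Crat, Acadl, Hadha, Hadhb, Eci1, Acox3, Pex11a and Ppargc1a after intravenous dosing. Crot passed after intravenous dosing without gavage cisplatin replicate 1 (-0.38, adjusted p = 0.0476), which enters that contrast only through the pooled spread and the adjustment. Pdk4 passed after gavage (adjusted p of 0.0175 to 0.0421) with normexp, array weights, the 6 gavage arrays alone, and without gavage cisplatin replicate 3 or intravenous cisplatin replicate 1 or 3. Acox2 passed after intravenous dosing with normexp (-0.66, adjusted p = 0.0316) and without gavage cisplatin replicate 3 (-0.90, adjusted p = 0.0374).

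The count of members passing the difference was 0 with spike-in scaling, quantile normalization, no filter on dim probes, the mean of all probes and the replicate block, and 12 with array weights, which gave 1 member in the water comparison. Leaving out 1 array at a time gave 30 to 31 falls after gavage, 28 to 30 after intravenous dosing, 0 to 14 members passing the difference and 0 between the water groups. The medians then ranged from -1.79 to -1.67 for all members, -1.82 to -1.70 for mitochondrial and -1.87 to -1.67 for peroxisomal members after gavage, and from -1.38 to -1.02, -1.35 to -1.01 and -1.29 to -1.05 after intravenous dosing. Replicate numbers did not pair the samples (correlations of deviations between -0.111 and 0.0626), and with the number as a replicate block 30 and 29 members fell. The slide as a random block gave 30, 29, 1 and 0 calls. As a fixed block it left the intravenous contrast and the difference without an estimate. Normexp was run on median signals, the spot summary used here. Acox3 and Acox2 had the lowest signals of the members, nearest to background.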
